A study of Mus musculus with 2 samples.

Results

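The miR-34 and miR-449 hairpins are microRNA genes from 3 loci whose main mature products begin with the same seed, the short stretch near the 5′ end with which a microRNA recognises its targets. The members were taken by name from the GENCODE M21 annotation of the count tables: Mir34a, Mir34b, Mir34c, Mir449a and Mir449c, 5 of 2202 microRNA genes. The tissue was adrenal gland, whose cortex makes steroid hormones and whose medulla makes catecholamines, from male B6CASTF1/J mice, a first-generation hybrid strain, aged 25 days. Short RNA of 1 group was sequenced in 2 libraries, called replicates 1 and 2, and no second condition was measured. The labels number the mice apart but list a single donor, so the spread between the replicates may be partly technical.

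In mammals, Mir34a and the Mir34b and Mir34c pair are transcribed under control of the tumour suppressor p53, and their products restrain the cell cycle and cell survival. The Mir449 hairpins sit inside Cdc20b and are switched on as cells build many motile cilia. The miR-34 and miR-449 products act on shared targets, and mice lacking both sets of genes have defects of motile cilia and of fertility. Mir34c and Mir449a are best known from testis, airway and other ciliated epithelia.

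The mature sequences show what the members have in common and where they part. They are from RefSeq (GRCm38.p6), 5′ to 3′, with the seed, bases 2 to 8, in capitals.

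miR-34a-5p: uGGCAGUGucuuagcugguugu

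miR-34b-5p: aGGCAGUGuaauuagcugauugu

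miR-449a-5p: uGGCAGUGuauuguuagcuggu

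miR-449c-5p: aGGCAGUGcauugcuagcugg

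miR-34b-3p: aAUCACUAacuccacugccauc

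miR-34c-3p: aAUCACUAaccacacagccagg

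The seed GGCAGUG stood at bases 2 to 8 of 4 of the 1738 mature sequences in the RefSeq table, those of Mir34a, Mir34b, Mir449a and Mir449c. The letters were also present in all 5 member hairpins, which were chosen as a seed family. Of 1005 RefSeq hairpins, with the members among them, 17 (1.69%) had the letters. miR-34c-5p was not used here. Outside the seed the 5p arms differed more. They were compared base by base from the 5′ end without gaps, so stretches shared out of register did not count. By this measure miR-449a-5p and miR-449c-5p were identical at 18 of 21 positions and miR-34a-5p and miR-449a-5p at 15 of 22. For miR-34b-5p and miR-449a-5p it was 10 of 22. On the opposite arm of the hairpin, miR-34b-3p and miR-34c-3p shared the seed AUCACUA, which no other mature sequence of the table had. The deposited counts are per hairpin and do not separate the arms. The longest run that any member hairpin shared with another annotated hairpin was 14 bases, between Mir449a and Mir679. None of the members shared 20 bases with another annotated hairpin, so reads of whole mature microRNAs could be told apart among annotated hairpins despite the common seed.

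The members lie on 3 chromosomes (mm10). Mir34a (ENSMUSG00000065493.1) is on the plus strand of chromosome 4 (150068454 to 150068555), and it overlaps an exon of Gm37795. Mir34b (ENSMUSG00000065492.1) and Mir34c (ENSMUSG00000065587.1) are on the minus strand of chromosome 9 (51103562 to 51103645 and 51103034 to 51103110), 451 bases apart, opposite an intron of Btg4 and inside no gene of their own strand. Mir449a (ENSMUSG00000065575.1) and Mir449c (ENSMUSG00000076146.1) are on the plus strand of chromosome 13 (113037534 to 113037624 and 113035983 to 113036091), 1442 bases apart, in an intron of Cdc20b.

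Replicate 1 had 3588361 reads on the sense strand of microRNA genes and replicate 2 had 4541373. Levels are given as counts per 1000000 of these (CPM), and 3 counts, the floor set for a count of 0, were worth 0.836 and 0.661 CPM. Intervals are exact at 95% and, like the floors, cover counting error only. For a count of 0 the interval reaches above the floor, to 1.03 CPM in replicate 1. Hairpins of other organs set the libraries apart. Mir122, the main hepatocyte microRNA, made up 0.0892% of the counts of replicate 1 and 19.8% of those of replicate 2, and skeletal muscle Mir206 had 3540 and 3 counts. The endocrine hairpin Mir375 was abundant in both, at 33380 and 29004 CPM. The tables hold microRNA genes only, so protein-coding markers of cortex and medulla could not be looked at.

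The family was present in both adrenal gland libraries, though from which organ's cells its reads came was not tested. Of its 5 members 4 were detected, meaning at least 10 counts in both libraries. Across all genes, 352 of 2202 (16.0%) were. Together the members held 0.297% (0.292 to 0.303) of the counts of replicate 1 and 0.220% (0.216 to 0.224) of those of replicate 2, a mean of 0.259% ± 0.0547 (SD, n = 2). With Mir122 left out of the totals these shares were 0.298% and 0.274%.

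Mir34c, the product of the 2-hairpin locus that is known from male germ cells and ciliated cells, was the most abundant member. It had 8988 counts, or 2505 CPM (2453 to 2557), in replicate 1 and 5461 counts, or 1203 CPM (1171 to 1235), in replicate 2. Its mean was 1854 CPM ± 921 (SD, n = 2), and 54 hairpins had a higher mean. The median detected hairpin averaged 111 CPM.

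Mir34a, the p53 target present in many tissues, was second in both libraries. It had 1095 counts, or 305 CPM (287 to 324), in replicate 1 and 3810 counts, or 839 CPM (813 to 866), in replicate 2, a mean of 572 CPM ± 377 (SD, n = 2). Unlike Mir34c it was higher in replicate 2.

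Mir449a, the Cdc20b-hosted hairpin of multiciliated cells, was close to the median detected hairpin. It had 341 counts, or 95.0 CPM (85.2 to 106), in replicate 1 and 499 counts, or 110 CPM (100.4 to 120.0), in replicate 2, a mean of 102 CPM ± 10.5 (SD, n = 2). Mir34b, the partner of Mir34c, followed with 241 counts, or 67.2 CPM (58.9 to 76.2), in replicate 1 and 212 counts, or 46.7 CPM (40.6 to 53.4), in replicate 2. Its mean was 56.9 CPM ± 14.5 (SD, n = 2).

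Mir449c, from the same intron as Mir449a, had 1 count in replicate 1 and 2 in replicate 2, below the floor of 3 in each. Its upper limits were 1.55 and 1.59 CPM, so its expression was not shown at this depth. Mir449b, which is annotated 35 bases from Mir449a and was looked at after its values had been seen, had 0 and 1 counts.

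The order Mir34c, Mir34a, Mir449a, Mir34b and Mir449c was the same in both libraries, and no neighbours in it overlapped in their values. It was also the same after division of the counts by hairpin length, which ran from 77 bases for Mir34c to 109 for Mir449c. Since the labels give the molecules as under 30 bases, a read corresponds to about 1 mature microRNA, and counts were otherwise not divided by length. In bulk tissue, fewer cells that express a hairpin and less of it per cell cannot be told apart.

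**Figure D1:**
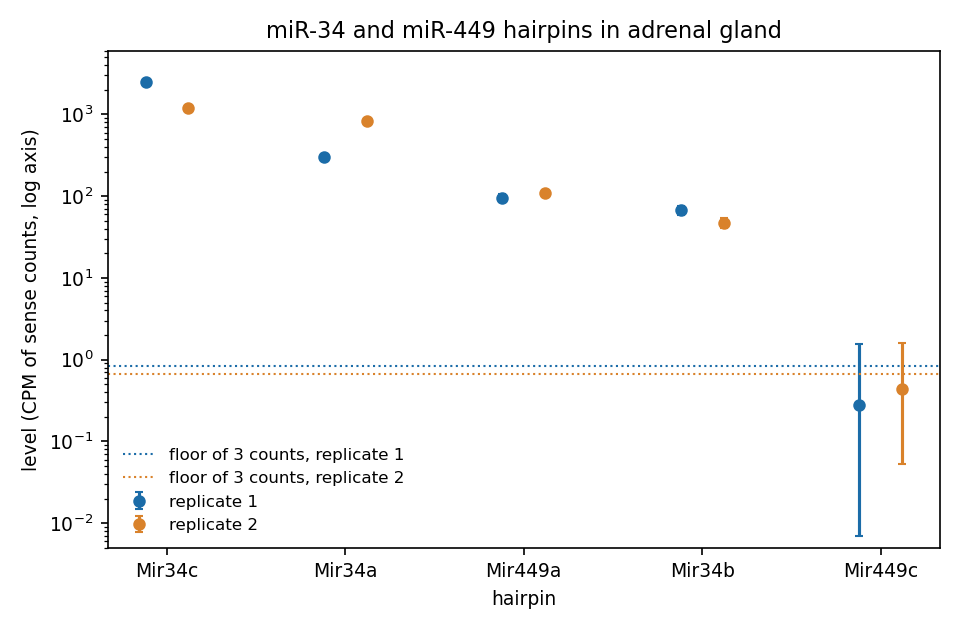
Level of each member (x axis, ordered by level) in CPM of sense counts (y axis, log scale) in replicate 1 (blue) and replicate 2 (orange), with exact 95% Poisson intervals and, as dotted lines, the level worth 3 counts. Mir34c stands at 2505 and 1203 CPM, Mir34a at 305 and 839 CPM, Mir449a and Mir34b between 46.7 and 110 CPM, and Mir449c below both dotted lines.

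The makeup of the family differed between the libraries, chiefly through Mir34a and Mir34c. Mir34c supplied 84.3% (83.6 to 84.95) of the family's counts in replicate 1 and 54.7% (53.7 to 55.7) in replicate 2. Mir34a supplied 10.3% (9.70 to 10.9) in replicate 1 and 38.2% (37.2 to 39.1) in replicate 2. Mir449a made up 3.20% and 5.00%, and Mir34b 2.26% and 2.12%. Mir34c had the largest part in both libraries, and of the 4 detected members Mir34b kept the most even part.

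**Figure D2:**
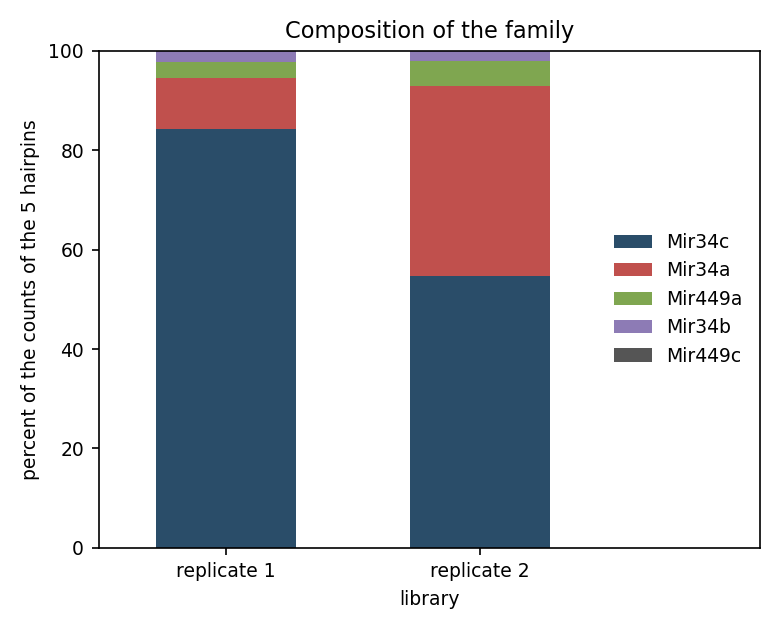
Percent of the summed sense counts of the 5 members (y axis) supplied by each member in replicate 1 and replicate 2 (stacked bars, no error bars). Mir34c supplies 84.3% in replicate 1 and 54.7% in replicate 2, Mir34a 10.3% and 38.2%, and Mir449c is too small to see.

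Ratios between hairpins of 1 library do not depend on the library total. Mir34c and Mir34b, 451 bases apart, were far from equal. Mir34c had 37.3 times (32.8 to 42.6) the counts of Mir34b in replicate 1 and 25.8 times (22.5 to 29.7) in replicate 2. Mir34c thus far exceeded its neighbour in both libraries, and the intervals of the ratio did not overlap. Mir449a had 341 times the counts of Mir449c in replicate 1, with an interval of 60.8 to 13508, and 249.5 times in replicate 2, with one of 68.7 to 2066. How efficiently each sequence is captured during library preparation was not measured, so ratios of reads between hairpins may differ from ratios of molecules.

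Mir34a stood at 0.122 (0.114 to 0.130) of the counts of Mir34c in replicate 1 and 0.698 (0.669 to 0.727) in replicate 2. Against Mir449a, Mir34a was 3.21 times (2.84 to 3.64) as high in replicate 1 and 7.64 times (6.95 to 8.40) in replicate 2, while Mir34c was 26.4 times (23.7 to 29.5) and 10.9 times (9.98 to 12.0) as high. Mir34b was 0.707 (0.597 to 0.836) and 0.425 (0.360 to 0.500) of Mir449a. Both hairpins of the chromosome 9 locus were thus lower in replicate 2 against Mir449a, and Mir34a was higher.

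**Figure D3:**
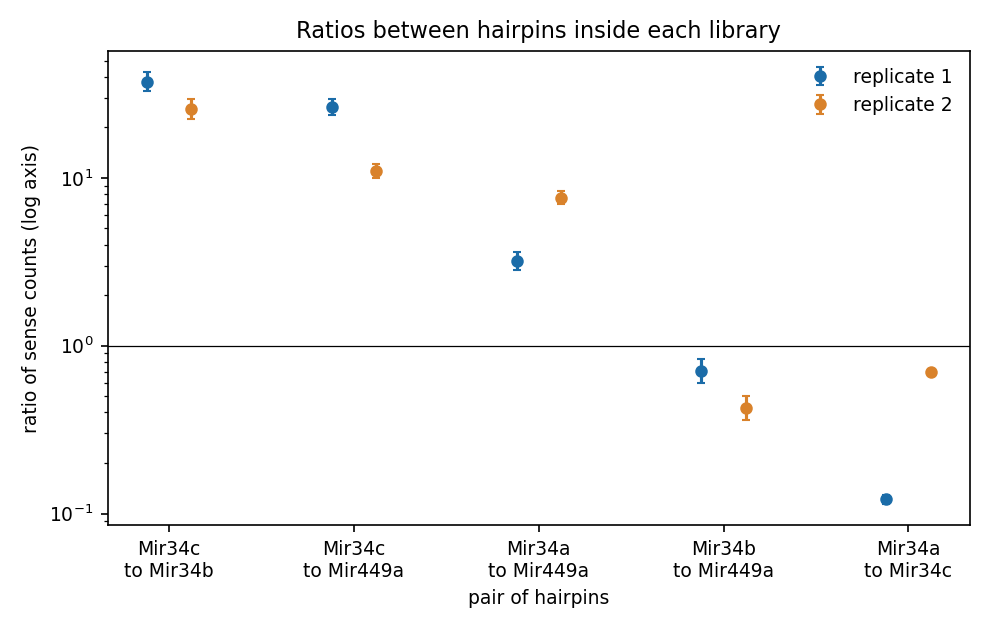
Ratio of the sense counts of pairs of members (y axis, log scale, horizontal line at 1) in replicate 1 (blue) and replicate 2 (orange), with exact 95% intervals. Mir34c to Mir34b is 37.3 and 25.8, and Mir34a to Mir34c is 0.122 and 0.698.

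The libraries were set against each other gene by gene with an exact binomial test, two-sided and adjusted by Benjamini-Hochberg over the 352 detected genes at a threshold of 0.05. It compares these 2 libraries and no conditions. Of the 4 detected members, 3 were called, where 67.0% of all detected genes were, so the number is close to the background. Mir34c and Mir34b were called higher in replicate 1, as were 36.6% of all genes, and Mir34a higher in replicate 2, as were 30.4%.

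Mir34c was 2.08-fold (2.01 to 2.15) higher in replicate 1 than in replicate 2, with a log10 adjusted p of -413. Mir34a was 2.75-fold (2.57 to 2.94) higher in replicate 2, with a log10 adjusted p of -222. On the log2(CPM + 1) scale these differences, replicate 1 minus replicate 2, were 1.06 for Mir34c and -1.46 for Mir34a, where the median detected gene stood at 0.04 and the median size of the difference was 0.43. By signed difference Mir34c was number 24 of 352 from the top and Mir34a number 15 from the bottom. With these library totals 293 of the 352 detected genes differed by 2-fold or less, and Mir34c and Mir34a by more. The log2 difference of Mir34c was 0.74 with Mir122 left out of the totals, 0.965 with totals of all input reads and 0.996 with edgeR's TMM factors, each under 2-fold.

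For Mir34b and Mir449a the call depended on the library total. Mir34b was 1.44-fold (1.19 to 1.74) higher in replicate 1 (adjusted p = 0.000250 by the exact binomial test), but with Mir122 out of the totals its adjusted p was 0.170. Mir449a stood in replicate 1 at 0.865 (0.751 to 0.995) of its level in replicate 2 and was not called (exact binomial test, adjusted p = 0.0592), while with Mir122 out of the totals it was (adjusted p = 3.56e-07). Leaving Mir122 out lowered the median log2 difference of all detected genes to -0.27 and the share of calls that were higher in replicate 1 to 29.9%, where it had been 54.7%. Relative to the median detected gene the log2 differences were 1.02 for Mir34c, 0.48 for Mir34b, -0.25 for Mir449a and -1.50 for Mir34a. Mir34a and Mir34c kept their calls and directions under every library total tried.

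**Figure D4:**
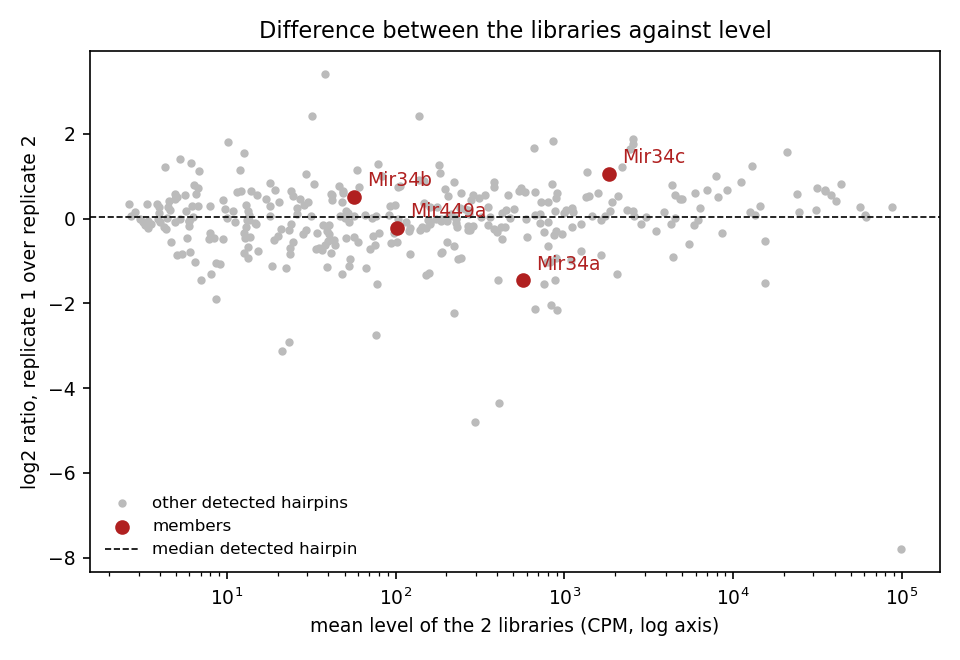
Log2 ratio of replicate 1 over replicate 2 (y axis, from CPM + 1) against mean level (x axis, CPM, log scale) for the 352 detected hairpins, with the 4 detected members in red and the median hairpin as a dashed line. Mir34c lies at 1.06 and Mir34a at -1.46, on opposite sides of the median, while Mir34b and Mir449a lie nearer to it.

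The marker hairpins that moved between the libraries are given here beside these differences, and their part in them was not tested. Mir122 was at 892 CPM in replicate 1 and 197553 CPM in replicate 2, and the kidney list, which liver shares in part and of which 3 of 4 hairpins were detected, summed to 106 and 1399 CPM. Mir192, at 19.5 and 569 CPM, and Mir194-2, at 37.6 and 789 CPM, made up most of the kidney sum in replicate 2 and were, like Mir122 and Mir34a, higher in that library. Mir204, the other detected kidney hairpin, was called higher in replicate 1, at 48.5 and 35.7 CPM. Leukocyte hairpins, 3 of 3 detected, summed to 1956 and 837 CPM. All 3 were called higher in replicate 1, as were Mir34c and 36.6% of all detected genes. The epithelial list, with 5 of 7 detected, summed to 3131 and 1461 CPM, of which Mir203 made up 3085 and 1313 CPM. Without Mir203 the other 6 epithelial hairpins summed to 46.0 and 148 CPM, the reverse direction. Of the 5 detected epithelial hairpins, Mir203 was called higher in replicate 1 and 3 were called higher in replicate 2, namely Mir200b by 8.83-fold, Mir429 by 10.8-fold and Mir200c by 1.46-fold. The skeletal muscle list had 0 of 5 hairpins detected and 1 at 0 in both libraries. It summed to 993 and 0.661 CPM, of which Mir206 made up 987 and 0.661 CPM. Reads mapping to several places were not counted. Sequence that the Mir1a copies and the Mir133a copies share was not examined, so their low counts do not show absence. The chromaffin and endocrine list, of which 3 of 5 names were in the annotation, all 3 detected, summed to 39723 and 33508 CPM. The names not found were Mir7a-1 and Mir7a-2. The annotated miR-7 hairpins Mir7-1, at 364 and 260 CPM, and Mir7-2, at 48.5 and 71.6 CPM, were not in the sum. Mir7-1 was called higher in replicate 1 and Mir7-2 higher in replicate 2. The erythroid list, 2 of 2 detected, summed to 1487 and 1248 CPM. All 3 endocrine hairpins of the sum and the 2 erythroid hairpins were also called higher in replicate 1.

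Mir34c and the Mir449 hairpins are abundant in testis, and a list of 13 hairpins of the testis cluster on the X chromosome was therefore read beside them. Of these, 12 had no count in either library and Mir471 had 1 count in replicate 2. Reads mapping to several places were not counted, and sequence that these hairpins share with others was not examined. The Mir9 and Mir124a hairpins of the nervous system had a single count, for Mir9-3 in replicate 1, though reads common to their near-identical copies were not counted. The nervous system list as a whole had 2 of 8 hairpins detected and 5 at 0 in both libraries, and summed to 84.2 and 47.3 CPM. The detected pair were Mir128-1, at 75.8 and 44.9 CPM, and Mir128-2, at 8.08 and 2.42 CPM. Both were called higher in replicate 1, as were Mir34c and 36.6% of all detected genes. Their part in the difference of Mir34c was not tested. They share a run of 23 bases, so their counts are uncertain.

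Other hairpins tied to p53, through transcription or processing and mostly in human cells, did not share a direction. Of the 10 listed, 8 were detected, and all 8 were called, 4 higher in replicate 1 and 4 higher in replicate 2, where 67.0% of all detected genes were called, 36.6% higher in replicate 1 and 30.4% higher in replicate 2. Their median log2 difference was -0.24, against 0.04 for all detected genes. Mir145a, a smooth muscle hairpin, was 3.40-fold higher in replicate 1, with 3953 and 1162 CPM, and its neighbour Mir143 was 1.48-fold higher there. Mir16-1 and Mir107, at 1087 and 715 CPM and at 2630 and 2525 CPM, were also called higher in replicate 1. Mir15a, from the same cluster as Mir16-1, was 2.47-fold higher in replicate 2, with 1178 and 2910 CPM, and Mir200c was 1.46-fold higher there. Mir192 and Mir194-2, which are also liver and kidney hairpins, were 29.2-fold and 21-fold higher in replicate 2. The undetected ones were Mir194-1 and Mir215. Of the list, 4 share at least 20 bases with another hairpin, Mir107, Mir16-1, Mir194-1 and Mir194-2, and their counts are uncertain.

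The hairpins most like each member in level were found by the distance of log2(CPM + 1) over the 2 libraries, which is a description of 2 points. Nearest to Mir34c were Mir203, with 3085 and 1313 CPM in replicates 1 and 2 (distance 0.33), and Mir431, with 1918 and 1267 CPM (0.39). Nearest to Mir34a were Mir214, with 248 and 1088 CPM (0.48), and Mir497, with 389 and 1126 CPM (0.55). Mir449a was closest to Mir874 (0.13) and Mir666 (0.15), and Mir34b to Mir128-1 (0.18) and Mir378c (0.30). Counts of Mir128-1 and Mir378c are uncertain, since they share 23 bases with Mir128-2 and 20 with Mir378a. Mir34a had no neighbour as near as the other members had.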

How the data were processed

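Small RNA libraries of adrenal gland were sequenced from 1 group of 2 libraries, which the labels number as biological replicates with a single donor entry for both, so p-values measure the spread of counting only. The authors deposited, for each library, raw read counts per microRNA gene, made on mm10 with GENCODE M21, per the accompanying text files. Which aligner and trimming were used is not given in the sources used here. The 4 summary lines of a table were left out of all totals. Its 3 columns of counts were read from their values as either strand, sense and antisense, and sense counts were used. Reads mapping to several places (31.6% and 27.0% of input reads) were not counted per gene.

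Levels are CPM, ratios used a pseudocount of 1 CPM, and genes with 10 counts in both libraries were tested. The binomial test was checked on simulated data with counting error only, and so not on further spread between libraries. Mature sequences came from RefSeq, where all 5 hairpins had the coordinates of GENCODE M21. Named genes were the members, the hairpins sharing their seed, the 2 detected hairpins nearest to each detected member, the p53-linked list and hairpins of other organs. Members and lists were chosen with earlier results of these data known. Alternatives were totals without Mir122, of all input reads, from edgeR 4.0.16 TMM and DESeq2 1.42.0 size factors, the either-strand column, count minimums, pseudocounts and each replicate left out. Added after the data were seen were totals without 4 hairpins of other organs and centring on the median gene. Computation used Python 3.11.15, scipy 1.17.1 and R 4.3.3.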

Additional observations from a re-analysis of the deposited data

Results flagged for a closer look

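Antisense counts enter no comparison of the results. Among the members, Mir34b in replicate 2 had 5 antisense counts, more than the floor of 3 set for a count of 0. Replicate 1 had 3. Of all counts at Mir34b, either strand, they were 1.23% in replicate 1 and 2.30% in replicate 2. Btg4 is annotated on the opposite strand at this place. The other 4 members had no antisense count.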

How the results depend on the processing

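As a part of all input reads the members held 0.110%, which follows from the larger total. Their share moved by less than 1 SD with Mir122, or 4 hairpins of other organs, out of the totals and in the either-strand column. That column held fewer counts than the sense column, 2989916 against 3588361 in replicate 1 and 3854821 against 4541373 in replicate 2. Leaving out replicate 1 or replicate 2 only returns the share of the other library, 0.220% or 0.297%. With 2 libraries that always lies within 1 SD of the mean, so it is no check. The number detected was 4 with count minimums of 5 and 20 and in the either-strand column, and 5 with at least 1 count in both libraries. Of 4 detected members, 3 or 4 were called under each library total, in the either-strand column and with minimums of 5 and 20, where 61.5% to 72.2% of all genes tested were called. With at least 1 count in either library 3 of 5 members were called, against 32.7% of 749 genes. The log2 difference of Mir34a, replicate 1 minus replicate 2, ran from -1.77 to -1.43 and that of Mir34c from 0.74 to 1.08 over 12 alternatives, all called. Mir34b ran from 0.20 to 0.53 and lost its call in 2 of 12, both without Mir122 in the totals (adjusted p from 0.000164 to 0.170). Mir449a ran from -0.52 to -0.18 and gained a call in 6 of 12, each with another library total (adjusted p from 3.56e-07 to 0.111). No paired analysis was possible because there was 1 group. Depth limits Mir449c, at 1 and 2 counts.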
